A study of Rattus norvegicus with 6 samples.

Results

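The 10 genes described here carry glucose and fructose across the membranes of the kidney tubule or make and use these sugars inside its cells. They are the sodium-coupled glucose carriers Slc5a2 and Slc5a1, the facilitative carriers Slc2a2, Slc2a1 and Slc2a5, the gluconeogenic enzymes Pck1, G6pc1, Fbp1 and Pc, and Khk, the first enzyme of fructose breakdown. They were chosen by symbol. Each was read from the brightest of its probes over all arrays, and the accession of a probe was matched to the symbol. All 10 had at least 1 probe, 21 probes in all, and they are 10 of the 31193 transcripts tested. RNA came from the renal cortex of male Sprague-Dawley (Crl:CD(SD)) rats, bought at 5 weeks of age, of which 3 received corn oil and 3 received carbon tetrachloride at 100 mg/kg/day, both for 4 weeks. Carbon tetrachloride is a toxic solvent made reactive by cytochrome P450 enzymes. Benzyl acetate stands in its place in the series' design text, and the labels of all 6 samples were followed here. Each rat gave 1 single-colour array.

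The proximal tubule takes back nearly all glucose that the glomerulus filters. SGLT2, the product of Slc5a2, does most of this on the luminal side of the early segment, and SGLT1, the product of Slc5a1, takes up what is left further down. Glucose then leaves the cell through GLUT2 or GLUT1, the products of Slc2a2 and Slc2a1. The same cells make new glucose from lactate, glutamine and glycerol, and release it to the blood, which makes the renal cortex the main site of gluconeogenesis besides the liver. Fructose enters by GLUT5, the product of Slc2a5, and is phosphorylated by ketohexokinase, the product of Khk.

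Pck1 and G6pc1 are classical examples of hormonal and daily control, and the 250 bases before their transcription starts are shown because these are the letters that several of the regulators measured here are known to read. The sequences are from RefSeq on the build GRCr8, of which the table held 9 of the 10 genes, and capitals mark every match to 3 motifs searched on both strands.

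Pck1, chr3:182348322-182348571, plus strand: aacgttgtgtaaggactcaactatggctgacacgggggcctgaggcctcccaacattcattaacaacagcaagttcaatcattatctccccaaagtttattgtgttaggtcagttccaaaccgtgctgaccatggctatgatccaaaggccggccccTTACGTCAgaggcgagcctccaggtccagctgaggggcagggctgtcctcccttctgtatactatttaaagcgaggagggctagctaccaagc
G6pc1, chr10:86807409-86807658, plus strand: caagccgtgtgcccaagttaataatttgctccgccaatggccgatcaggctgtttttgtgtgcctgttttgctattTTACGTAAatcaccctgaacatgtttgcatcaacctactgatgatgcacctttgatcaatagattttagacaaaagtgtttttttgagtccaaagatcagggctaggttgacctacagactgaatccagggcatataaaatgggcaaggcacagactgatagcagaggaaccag

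The capitals in Pck1 are TTACGTCA, the letters of a cyclic AMP response element, which begin 93 bases before the start. This motif occurs in 0.75% of the 33469 windows of the same length in the table. In G6pc1 the capitals are TTACGTAA, 174 bases before it, the letters of a D-box, the kind of element bound by the clock factor DBP, found in 0.108% of the windows. The third motif, the D-box variant TTATGTAA, is in 0.828% of the windows and in none of the 9 members' windows. The matches do not overlap each other, and they describe letters only. Which factors bind them in these rats was not measured. Only these exact strings were searched, and other spellings of the same elements were not. The shares depend on the strings chosen. Whether a match in these genes is unusual was not tested.

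The comparison asks whether the cortex of treated rats held other amounts of these transcripts. The members differed little. In limma, 0 of the 10 members passed an adjusted p of 0.05, and 0 passed at an unadjusted p of 0.05, beside 0.00321% and 6.3% of all transcripts. Their log2 differences, treated minus control, had a median of 0.023 and a median size of 0.059, beside 0.0077 and 0.095 over all transcripts. The median pooled SD within groups was 0.11 for the members and 0.14 for all transcripts, so these sizes are not compared at equal spread. The 95% intervals of the moderated fit, not adjusted for the number of genes, lay within a 2-fold change in either direction for 10 of 10 members and within a 1.5-fold change for 8 of 10. In these bulk samples fewer cells of a type and less RNA per cell cannot be told apart.

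**Figure D1:**
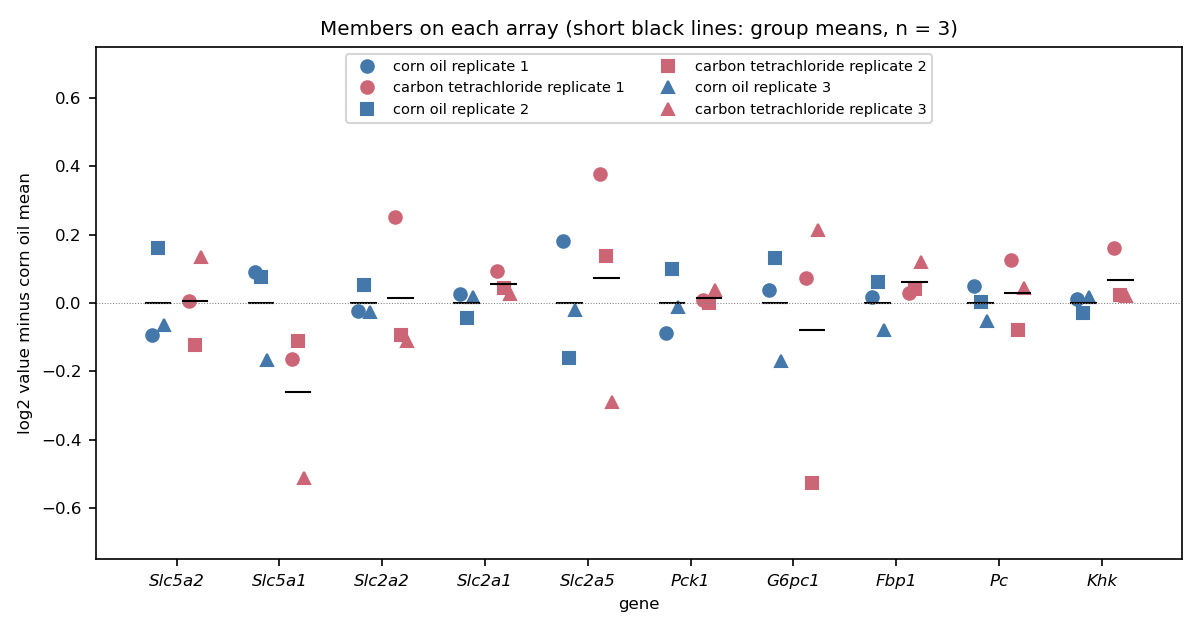
Log2 value of each of the 10 genes on each of the 6 arrays, minus that gene's corn oil mean. Blue symbols are corn oil and red symbols carbon tetrachloride, and short lines are group means (n = 3). The symbol shape gives the replicate number, for which the labels state no pairing between groups. The groups overlap for 8 genes. The lowest points belong to G6pc1 on carbon tetrachloride replicate 2 and Slc5a1 on carbon tetrachloride replicate 3.

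The values below are log2 of the spot signal relative to the 75th percentile of the array, so that 0 is the signal below which 75% of probes lie. Slc5a2, whose product SGLT2 is the target of the gliflozin drugs, read 6.99, 7.24 and 7.02 on the corn oil arrays 1 to 3 and 7.09, 6.96 and 7.22 on the carbon tetrachloride arrays 1 to 3. The groups overlapped almost fully, with the highest value in a control rat and the lowest in a treated rat. The means were 7.08 ± 0.14 and 7.09 ± 0.13 (SD, n = 3 each), and the difference was 0.0053 ± 0.11 (SE, limma adjusted p = 0.995). Its 95% interval ran from 0.837-fold to 1.20-fold. The other 2 probes of the gene gave -0.031 ± 0.15 and 0.056 ± 0.15 (SE), and all 3 probes were lowest on carbon tetrachloride replicate 2. Pdzk1ip1 encodes MAP17, the small membrane protein that SGLT2 needs for its activity, and read 5.51 ± 0.11 and 5.58 ± 0.11 (SD, n = 3 each).

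Slc5a1 was the member with the largest difference and the smallest p. Its brightest probe read -1.23, -1.24 and -1.48 in the control rats and -1.48, -1.43 and -1.83 in the treated rats. All 3 treated values lay below the control mean, but 2 of them lay within the control range. The means were -1.32 ± 0.15 and -1.58 ± 0.22 (SD, n = 3 each), and the difference was -0.26 ± 0.14 (SE, unadjusted p = 0.105, limma adjusted p = 0.815), with an interval from 0.661-fold to 1.05-fold. The second probe of the gene had the opposite direction. It read -2.11, -2.03 and -2.31 in control rats and -2.07, -2.11 and -2.04 in treated rats, a difference of 0.077 ± 0.091 (SE). Without carbon tetrachloride replicate 3, the lowest array for the first probe and the 1 array on a second slide, the first probe's difference was -0.14. A direction for SGLT1 RNA is therefore not given by these 2 probes.

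Slc2a2 encodes GLUT2, the basolateral exit for glucose in the early proximal tubule. It read 3.46, 3.54 and 3.46 in control rats and 3.74, 3.39 and 3.37 in treated rats. Carbon tetrachloride replicate 1 stood above all other arrays and the remaining treated rats stood below all control rats. The difference of means was 0.016 ± 0.11 (SE, limma adjusted p = 0.989), and it was -0.10 without carbon tetrachloride replicate 1. The other 2 probes gave 0.064 ± 0.12 and 0.0072 ± 0.10 (SE), and all 3 probes were highest on the same array.

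Slc2a1 encodes GLUT1, a basal glucose carrier found in most cells, and had 1 probe. The control values were 1.66, 1.59 and 1.65 and the treated values 1.73, 1.68 and 1.66. The groups did not overlap, but the lowest treated and the highest control value differed by under 0.01. The difference was 0.056 ± 0.063 (SE, limma adjusted p = 0.884), a fold of 1.04 with an interval from 0.934 to 1.16. The spread of Slc2a1 between rats was small, in the lowest 2.99% of all transcripts.

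Slc2a5, the fructose carrier of the brush border, differed more between rats than most members. It read 2.46, 2.12 and 2.26 in control rats and 2.66, 2.42 and 1.99 in treated rats. The highest and the lowest value were both in the treated group. The difference was 0.075 ± 0.19 (SE, limma adjusted p = 0.956), with an interval from 0.764-fold to 1.45-fold. Leaving out carbon tetrachloride replicate 1 gave -0.076, leaving out corn oil replicate 2 gave -0.0059 and leaving out carbon tetrachloride replicate 3 gave 0.26. The second probe gave 0.080 ± 0.19 (SE) and ordered the treated rats in the same way.

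**Figure D2:**
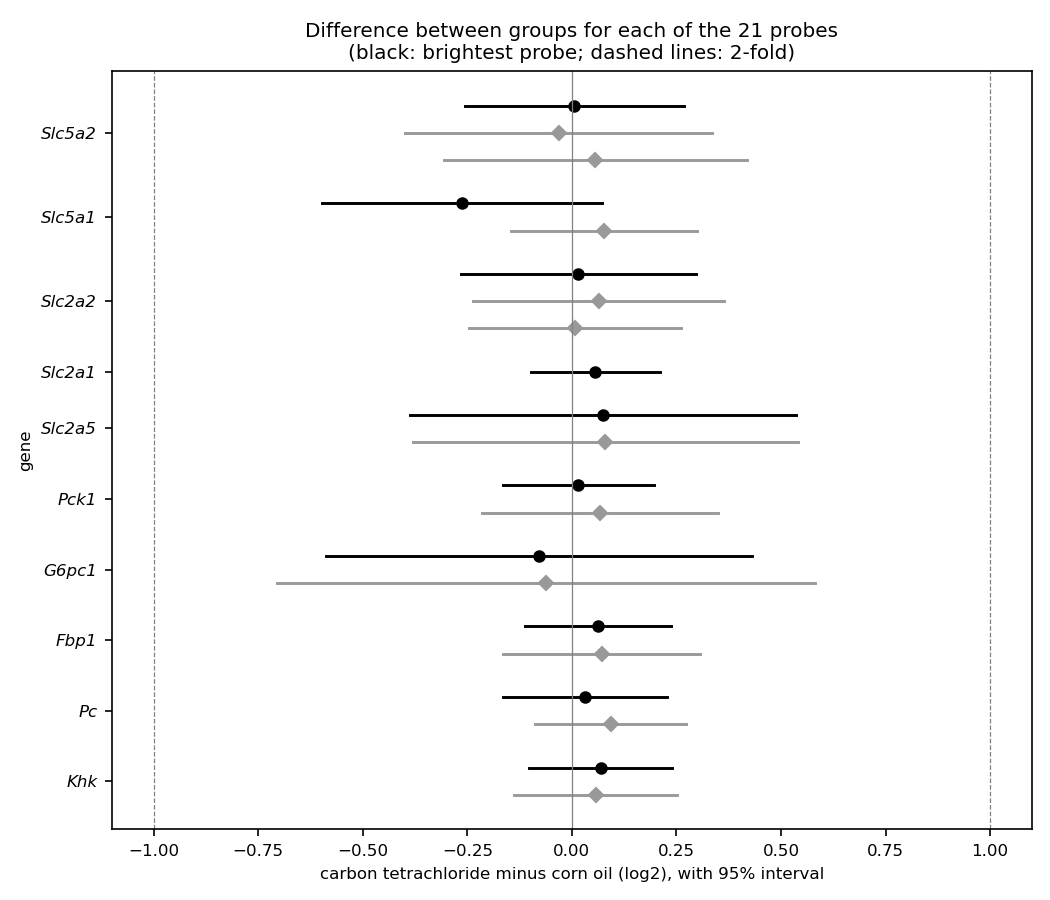
Difference between the group means (log2, carbon tetrachloride minus corn oil) with its 95% interval for each of the 21 probes, from 1 limma fit over all tested probes. Black circles are the brightest probe of each gene, grey diamonds the others, and dashed lines mark a 2-fold change. Every interval includes 0 and none reaches a dashed line, and the 2 probes of Slc5a1 lie on opposite sides of 0.

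Among the gluconeogenic enzymes, Pc encodes pyruvate carboxylase, which makes oxaloacetate from pyruvate in mitochondria. It read 7.65, 7.60 and 7.55 in control rats and 7.73, 7.52 and 7.65 in treated rats. These ranges overlapped, and the difference was 0.031 ± 0.080 (SE, limma adjusted p = 0.956), or -0.017 without carbon tetrachloride replicate 1. A second probe gave 0.092 ± 0.074 (SE).

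Pck1 encodes the cytosolic phosphoenolpyruvate carboxykinase, the step at which hormones and acid load act most. It read 7.58, 7.77 and 7.66 in control rats and 7.68, 7.67 and 7.71 in treated rats. The treated values all lay inside the control range and were closer together, with an SD of 0.020 against 0.094. The difference was 0.015 ± 0.074 (SE, limma adjusted p = 0.980), its interval ran from 0.892-fold to 1.15-fold, and without corn oil replicate 1 it was -0.028. The second probe read 6.71, 6.96 and 6.77 against 6.77, 6.80 and 7.07 and did not show the narrow spread of the treated rats, with an SD of 0.17 there and a difference of 0.067 ± 0.12 (SE).

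Fbp1, fructose bisphosphatase, works upstream of the final step and read 8.95, 9.00 and 8.86 in control rats and 8.96, 8.98 and 9.05 in treated rats. The 3 treated values lay above the control mean and within or just above the control range. The difference was 0.062 ± 0.071 (SE, limma adjusted p = 0.884). This probe was close to the top of the scale, with a median spot signal of up to 84.1% of the scanner's saturation value, and 0 of its spots were marked saturated. The dimmer second probe gave 0.071 ± 0.096 (SE).

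G6pc1 encodes the catalytic subunit of glucose-6-phosphatase, which releases free glucose as the last step. It was the most variable member. It read 7.27, 7.36 and 7.06 in control rats and 7.31, 6.71 and 7.45 in treated rats, so that both extremes lay in the treated group. The SD was 0.15 in control and 0.39 in treated rats, and the pooled spread was larger than in 82.2% of transcripts. The difference was -0.079 ± 0.21 (SE, limma adjusted p = 0.957), with an interval from 0.664-fold to 1.35-fold. Without carbon tetrachloride replicate 2 the difference was 0.14. The second probe, with a difference of -0.061 ± 0.26 (SE), read 3.95, 4.15 and 3.82 in control rats and 3.97, 3.37 and 4.39 in treated rats, and so had its highest and lowest value on the same arrays.

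Khk, which commits fructose to breakdown by forming fructose 1-phosphate, read 7.98, 7.94 and 7.99 in control rats and 8.13, 7.99 and 7.99 in treated rats. The groups did not overlap, with a gap between them of under 0.01. The difference was 0.069 ± 0.070 (SE, limma adjusted p = 0.871), and a second probe with overlapping groups gave 0.057 ± 0.079 (SE). Khk and Slc2a1 were the 2 of 10 members whose groups did not overlap, both higher after carbon tetrachloride, whereas 12.8% of all transcripts did not overlap, 7.55% being higher and 5.28% lower. With quantile normalization the groups of 0 members stayed apart, where 12.9% of all transcripts did not overlap. Without corn oil replicate 2 the groups of 4 members stayed apart, where 21.1% of all transcripts did not overlap.

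By direction alone, 8 members were higher and 2 lower after carbon tetrachloride, while 52.3% of all transcripts were higher. This count is not stable. With quantile normalization, or with normexp background correction and either scaling, 5 of 10 were higher, and without carbon tetrachloride replicate 1 also 5. For 8 members the difference between the groups was smaller than the larger of the 2 group SDs, the exceptions being Slc5a1 and Slc2a1.

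Single arrays differed in ways that separate probes of 1 gene often reported alike. Of the 9 genes with more than 1 probe, all probes put the highest value on the same array for 5 genes and the lowest value on the same array for 5 genes, and for G6pc1 and Slc2a5 both held. Probes of a gene share the labelled RNA of an array, so this is not replication, and with 1 array per rat the rat and its array cannot be told apart. Carbon tetrachloride replicate 1 was the highest array for 5 members, among them Slc2a2, Slc2a5 and Khk. Corn oil replicate 3 lay below the mean of the 6 arrays for 10 of 10 members. The low value of G6pc1 in carbon tetrachloride replicate 2 was shared by a neighbour in the pathway, which was singled out after its values were seen. This gene, Slc37a4, the transporter that brings glucose 6-phosphate to glucose-6-phosphatase, read 6.24, 6.13 and 6.09 in control rats and 6.49, 5.86 and 6.51 in treated rats. It was lowest of the 6 arrays on carbon tetrachloride replicate 2, and its groups overlapped, with a difference of 0.13 ± 0.19 (SE). Leaving out carbon tetrachloride replicates 1, 2 or 3 gave 0.033, 0.35 and 0.022 in turn.

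**Figure D3:**
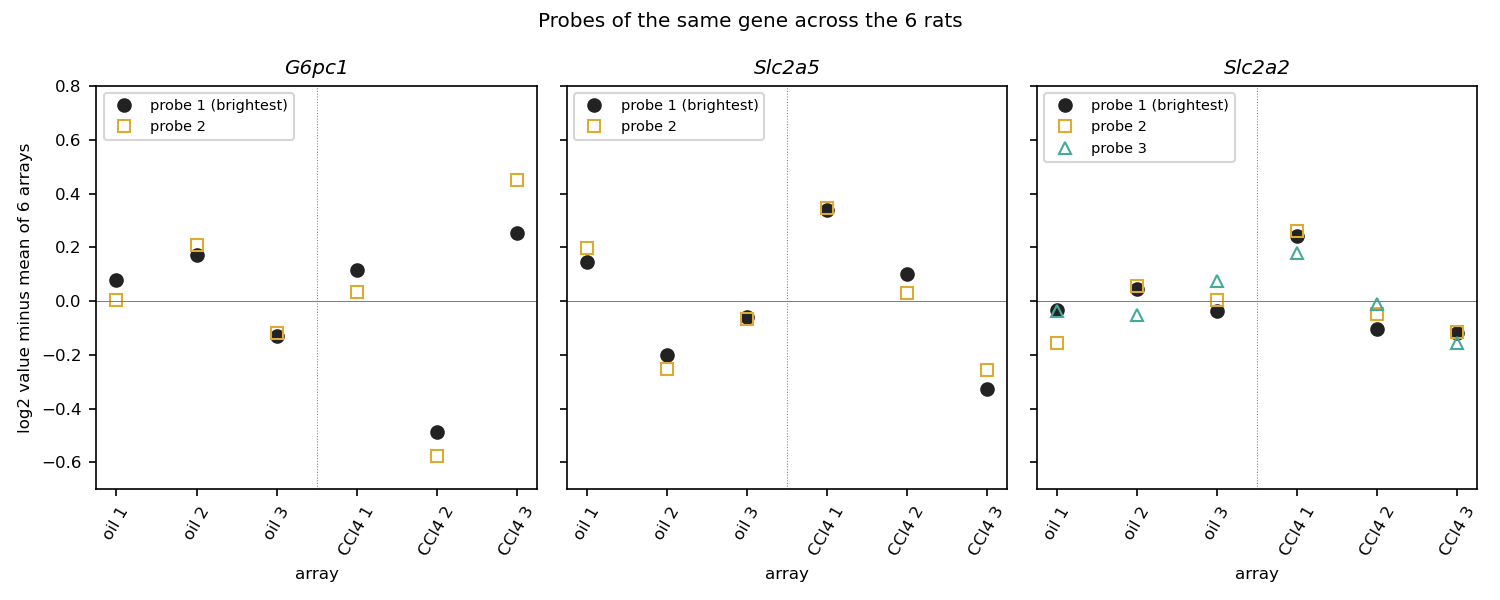
Log2 value of each probe of G6pc1, Slc2a5 and Slc2a2 on each array, minus the probe's mean over the 6 arrays. Filled circles are the brightest probe and open symbols the others, oil is corn oil and CCl4 is carbon tetrachloride, and the dotted line divides the groups. Both probes of G6pc1 are lowest on carbon tetrachloride replicate 2 and highest on replicate 3, and all probes of Slc2a5 and Slc2a2 are highest on carbon tetrachloride replicate 1.

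The rest of the pathway was read from 6 lists, which were chosen with earlier results of these data known. In limma, 0 of their genes passed an adjusted p of 0.05. Of 14 tested other carriers and partners, 12 were higher and 2 lower, with 0 at an unadjusted p of 0.05 and a median log2 difference of 0.11, beside 0.0077 over all transcripts. Slc45a3, a sugar carrier, had -0.16 ± 0.098 and Slc2a6, a lysosomal member of the GLUT family, 0.14 ± 0.087 (SE). Of 27 tested other enzymes of gluconeogenesis and substrate entry, 1 was higher and 2 were lower at an unadjusted p of 0.05, beside 3.67% and 2.63% of all transcripts, with a median of -0.0071. The 2 lower genes were Fbp2, the fructose bisphosphatase of muscle, and Slc16a1. Fbp2 read 0.61, 0.69 and 0.26 in control rats and 0.0031, 0.050 and 0.21 in treated rats. The groups did not overlap, the difference was -0.44 ± 0.13 (SE, limma adjusted p = 0.768), and both its probes had this direction. Slc16a1, which encodes the lactate carrier MCT1, read 2.40, 2.46 and 2.36 against 1.84, 1.57 and 2.28, a difference of -0.51 ± 0.18 (SE, limma adjusted p = 0.774). Every treated rat lay below every control rat for this gene.

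In fructose and polyol metabolism 6 of 13 tested genes were higher and 7 lower, and 0 passed an unadjusted p of 0.05. Pgm1, phosphoglucomutase, had 0.11 ± 0.081 and Gfpt1, the entry enzyme of hexosamine synthesis, -0.099 ± 0.081 (SE). In glycolysis and glucose phosphorylation 2 of 24 tested genes, Pdk1 and Pdk2, were higher at an unadjusted p of 0.05 and 0 were lower, beside 3.67% and 2.63% of all transcripts. Both encode kinases that switch off pyruvate dehydrogenase, which keeps pyruvate from oxidation. The other kinases of this kind on the list, Pdk3 and Pdk4, had 0.13 ± 0.10 and -0.51 ± 0.37 (SE). Neither passed an unadjusted p of 0.05. Pdk2 read 5.51, 5.53 and 5.52 in control rats and 5.78, 5.67 and 5.91 in treated rats, a difference of 0.26 ± 0.082 (SE, limma adjusted p = 0.768). Pdk1 had 0.35 ± 0.065 (SE, limma adjusted p = 0.689). In glycogen metabolism 0 of 12 tested genes passed an unadjusted p of 0.05, with Pygb, a glycogen phosphorylase, at 0.21 ± 0.11 and Ugp2, which makes UDP-glucose, at -0.087 ± 0.068 (SE).

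Of 32 tested regulators of the pathway, 25 were higher and 7 lower, where 52.3% of all transcripts were higher. Their median log2 difference was 0.10, beside 0.0077 over all transcripts. At an unadjusted p of 0.05, 6 were higher and 0 lower, beside 3.67% of all transcripts higher and 2.63% lower. The list was chosen with earlier results of these data known, so these counts are not an independent test. The count of 6 was 3 without corn oil replicate 2. Dbp, whose product is known to bind D-box letters, read 3.34, 3.25 and 3.60 in control rats and 4.26, 3.70 and 4.25 in treated rats. The groups did not overlap, and the difference was 0.67 ± 0.19 (SE, limma adjusted p = 0.755), with the same direction on all 4 probes. G6pc1 had a difference of -0.079 ± 0.21 (SE), and whether DBP acts on G6pc1 was not tested. Ppargc1b, a coactivator of mitochondrial genes, had 0.38 ± 0.11 (SE, limma adjusted p = 0.764). Fkbp5, a glucocorticoid-induced gene on the list and named after its value was seen, read 1.43, 2.28 and 2.69 against 3.02, 3.08 and 3.82, a difference of 1.17 ± 0.37 (SE, limma adjusted p = 0.768). The tubule factor Hnf4a had a difference of 0.0080 ± 0.074 (SE), smaller than its error.

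**Figure D4:**
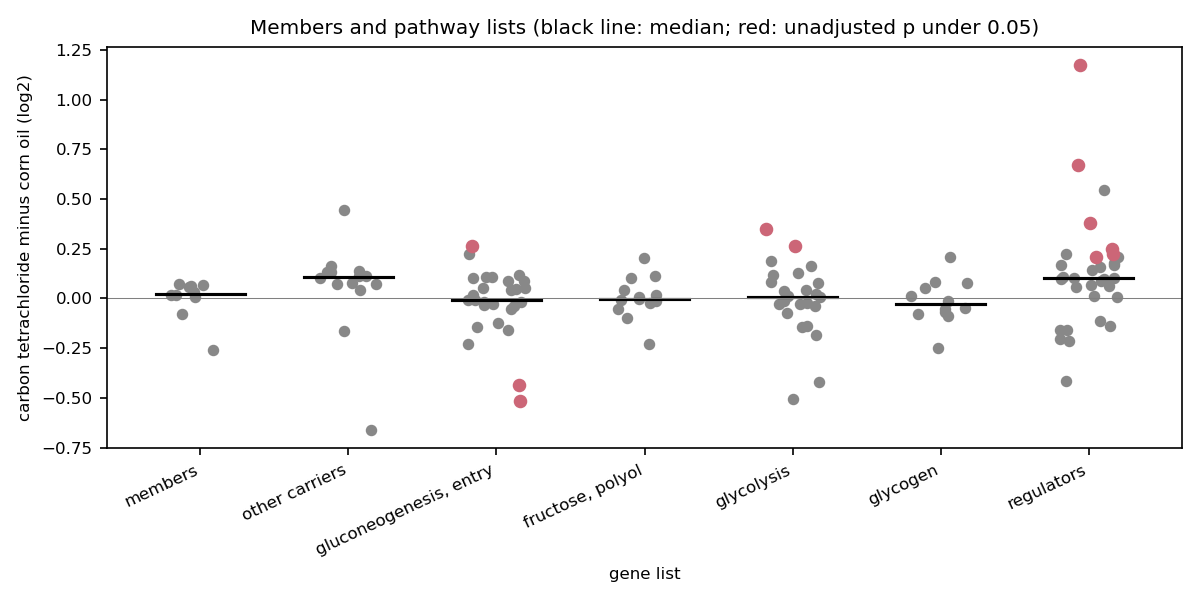
Log2 difference between the groups (carbon tetrachloride minus corn oil) for the 10 members and for the tested genes of the 6 pathway lists, with 1 point per gene, a black line at each median, and red points for an unadjusted p under 0.05. The members lie between -0.26 and 0.075 with 0 red points, and the regulators, at the right, have 6 red points, all above 0. Members and lists were chosen with earlier results of these data known.

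As a view of the tissue sampled, 10 of 10 proximal tubule genes were well above background on all 6 arrays, with 0 of them past an unadjusted p of 0.05. This does not test the cortex label. The inner medulla genes Aqp4 and Slc14a2 were also well above background on 6 arrays, at levels of -0.85 and -2.46. Of markers of liver, the other main home of Pck1 and G6pc1, Ttr, Serpina1 and Cyp7a1 were well above background on 0 arrays and Alb on at most 2, while Apoa1 and Fgb were so on 6. Apoa1 differed by 0.80 ± 0.24 (SE, unadjusted p = 0.0169, limma adjusted p = 0.768), without overlap, and Fgb by -0.14 ± 0.16 (SE). Apoa1 was dim, with means of -5.56 ± 0.27 in control and -4.76 ± 0.42 in treated rats (SD, n = 3 each). Leukocyte markers were lower in treated rats for 6 of 6 genes, 4 of them at an unadjusted p of 0.05, beside 2.63% of all transcripts. The log2 of their summed signals ran from 5.31 to 5.58 in control and from 4.86 to 5.30 in treated rats. This sum is mostly Cd74, which read 5.35 ± 0.18 and 4.94 ± 0.26 (SD, n = 3 each) with overlapping groups. The next brightest, Cd68, read 1.05 and 0.94. Cd68 and Ptprc did not pass an unadjusted p of 0.05. Cd8b, Cd3g and Cd3e differed by -0.98 ± 0.086, -1.01 ± 0.15 and -1.11 ± 0.29 (SE, limma adjusted p = 0.187, 0.627 and 0.749). For these 3 the groups did not overlap, where 5.28% of all transcripts were lower without overlap. Cd3e was dim, with means of -4.58 in control and -5.69 in treated rats, and was well above background on 5 arrays. The part of the leukocyte markers in the members' values was not tested. Between 68.5% and 72.1% of probes were well above background on an array, and all 10 members were so on all 6 arrays. The 3 control arrays and carbon tetrachloride replicates 1 and 2 shared slide 1 and scan 1, and carbon tetrachloride replicate 3 was alone on slide 2 and scan 2. With the slide as a block 7 of 10 members were higher and 0 passed an adjusted p of 0.05. Slide 2 held 1 array, so this block gave the same differences as leaving out carbon tetrachloride replicate 3.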

How the data were processed

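Cy3-labelled RNA of 6 rats was hybridised to 1-colour Agilent arrays. The authors deposited scanner files of spot intensity, which per the file headers came from Agilent Feature Extraction 10.7.1.1 (version 10.7 in the submitters' processing notes). Its processed signal is linear and has background taken off. In the series' value table, also an intensity deposited by the authors, each column was that signal divided by 1 factor per array, and its medians ran from 0.111 to 0.118. It has 0 columns of other samples.

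From this deposited intensity, log2 values were formed and centred on the 75th percentile of the array. Control spots and outlier-flagged spots were left out. Tested probes were those that all 3 arrays of either group showed well above background (42400 of 61537). Probes were named by accession, without its version, through a RefSeq table of GRCr8 (45.8% matched), and each gene was read from its brightest tested probe. The test was limma's (3.58.1, R 4.3.3), with lmFit and eBayes, two-sided and Benjamini-Hochberg adjusted over 31193 transcripts. The labels name separate animals. The number of arrays limits precision. Members and lists were chosen with earlier results of these data known. Of each list the 2 genes of smallest p are named, with Slc37a4, Pdzk1ip1, Hnf4a, Fkbp5, Pdk3 and Pdk4 added after seeing values. The mean signal column the plan assumed for normexp was replaced by the median spot signal.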

Additional observations from a re-analysis of the deposited data

How the results depend on the processing

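In every setting tried, 0 members and 0 genes of the pathway lists passed an adjusted p of 0.05. The count over all transcripts was 1 in the main setting and 0 with normexp and either scaling, with no filter, with the filter on all 6 arrays, with a robust fit with trend, with either block (slide, replicate number) and within slide 1. Leaving out single arrays it ran from 0 to 2, with 0 without corn oil replicate 1, carbon tetrachloride replicate 2 or carbon tetrachloride replicate 3 and 2 without corn oil replicate 3. The slide block, within slide 1 and without carbon tetrachloride replicate 3 gave the same differences and are not separate checks. The labels name separate animals and state no pairing by replicate number. Deviations of same-numbered arrays from their group means correlated at -0.10 to -0.02, which cannot by itself exclude a pairing. With the replicate number as a block Slc5a1 had an unadjusted p of 0.0309 and an adjusted p of 0.831, the call of no member or list gene changed, and 3 in place of 6 regulators were higher at an unadjusted p of 0.05.

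The direction of several small differences turned, and the cause was not tested. With normexp and the 75th percentile, normexp and quantile, and quantile normalization alone, the log2 difference was -0.0057, -0.0017 and -0.0013 for Slc5a2, -0.011, -0.037 and -0.019 for Pck1, and -0.0094, -0.039 and -0.021 for Pc. With the first and the second of these it was 0.024 and 0.0066 for Gfpt1 and -0.041 and -0.029 for Hnf4a, which had -0.013 as a mean of probes. Slc5a2 had -0.060 with the slide block or within slide 1 and -0.031 on its second probe, and Slc5a1 had 0.077 on its second probe. Without single arrays the difference ran from -0.060 to 0.085 for Slc5a2, -0.10 to 0.078 for Slc2a2, -0.076 to 0.26 for Slc2a5, -0.028 to 0.065 for Pck1, -0.23 to 0.14 for G6pc1, -0.017 to 0.086 for Pc and -0.034 to 0.040 for Hnf4a. Fbp1, Khk and Slc2a1 kept their signs in every setting tried but not their size, with ranges from 0.0094 to 0.093, 0.018 to 0.092 and 0.027 to 0.070.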
